A study of Mus musculus with 8 samples.

Results

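The 4 control arrays of a series on sorted luminal cells of the mouse mammary gland describe the transcripts of these cells on day 15 of pregnancy. They are the samples whose cell subtype label reads Ctrl luminal cells, 4 of 8 arrays, and carry the replicate numbers Ctrl 1 to Ctrl 4. The other 4 arrays, labelled a3a6KO, were not used, and no genotype was compared. The alleles and strain of the control mice, any Cre line behind them, the antibodies of the sort and any pooling of animals are not named in the sources used here. The series design calls the 4 samples biological replicates.

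Luminal cells line the ducts and alveoli of the gland. In later pregnancy, progesterone, prolactin and placental lactogens turn the alveolar cells into secretory cells, which make milk proteins and fat before full secretion begins at birth. Prolactin acts through its receptor, the kinase Jak2 and the factor Stat5a, which enters the nucleus and binds the promoters of milk protein genes, together with factors such as Elf5 and Nfib. Basal cells, which include the contractile myoepithelial cells, lie beneath the luminal layer and touch the basement membrane.

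The labels describe fresh tissue that went through enzymatic digestion, labelling and a FACS sort, and 500 pg of RNA per sample was amplified before the biotin label was added. Every value below is a log2 RMA value of 1 probe set on 1 array, where RMA is a method that corrects background, brings the arrays to a shared distribution and combines the probes of a set. A difference of 1 is 2-fold. Probes bind with different strength, so an order of genes is an order of array signal and not of transcript amount. Of 19505 genes with a named probe set, each was represented by the set of highest mean. Probe sets placed in introns served as background, and a gene counted as above it on an array where it exceeded their 95th percentile there, which was 6.90, 6.68, 6.38 and 6.50 on Ctrl 1 to 4. Above it lay 2243, 2657, 3230 and 3071 genes, or 11.5, 13.6, 16.6 and 15.7% of all. Ctrl 1, with the highest percentile, had the fewest genes above it, and Ctrl 3, with the lowest, had the most, while the gene medians were 4.10, 4.11, 4.09 and 4.11. A gene below the percentile may still be transcribed, and its differences are not given as folds. The median of the exon control sets (6.38, 6.355, 6.38 and 6.46) also lay at or below the percentile on each array. On Ctrl 3 the highest value of all probe sets, 13.24, was that of an intron set. On all 4 arrays, 1820 genes (9.33%) lay above background, on 1 to 3 arrays 2178 (11.2%) and on 0 arrays 15507 (79.5%). Values of single genes correlated with r between 0.931 and 0.945 over all genes for each pair of arrays, across genes, which are not independent replicates.

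The array labels were checked against marker genes before anything else. Csn2 (beta-casein), Wap (whey acidic protein) and the luminal keratins Krt8 and Krt18 lay far above background on all 4 arrays. Csn2 read 12.52, 12.67, 12.40 and 12.55 and Wap 11.86, 11.96, 12.33 and 12.76 on Ctrl 1 to 4. Krt18 read 11.19, 10.78, 11.12 and 11.08, and Krt8 read 10.62, 10.28, 10.19 and 10.37. The 4 arrays thus carry the signal of milk-producing luminal cells. Markers of other cell types differed between the arrays, however. Ctrl 2 and Ctrl 3 carried high values of keratins of squamous epithelium, and Ctrl 4 carried higher values of endothelial and contractile genes than the other 3. Their values are given in full after the baseline. In such bulk samples, fewer cells of a type and less RNA per cell cannot be told apart.

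Ribosomal, milk and mitochondrial genes filled the top of the signal. The highest was Csn1s2a, the gene of an alpha-S2 casein, with 12.86, 12.91, 12.82 and 12.91. Csn2 stood at rank 3, Wap at rank 8, Csn1s1 (alpha-S1 casein) at rank 14 and Csn3 (kappa-casein) at rank 36. Of the 20 highest genes, 9 were ribosomal protein genes by symbol, among them Rps29, Rplp1, Rpl41, Rps28, Rps21, Rpsa, Rpl35, Rpl38 and Rpl31. A further 5 were milk protein genes: Csn1s2a, Csn2, Wap, Csn1s1 and Glycam1. Glycam1, a mucin-like protein of milk, read 11.81, 12.06, 11.94 and 12.05. Cox6c and Cox7c, subunits of cytochrome c oxidase, and Actb, B2m and Fth1, which encode actin, the light chain of class I antigens and ferritin heavy chain, were also there. Ly6e, which encodes a surface protein (11.82, 11.80, 11.99 and 12.01), and Rpl31 were the genes of the 20 in none of the lists. Among the 100 highest, 46 were ribosomal by symbol, 8 were on the milk list, 7 on the oxidative phosphorylation list and 5 on the translation list. The 4 values of these genes lay close together, with a median SD of 0.08 over the 100. Spike-in controls reached 13.20 to 13.26 on Ctrl 1, 2 and 4, so the highest genes sit near the top of the scale, where differences may be compressed.

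**Figure D1:**
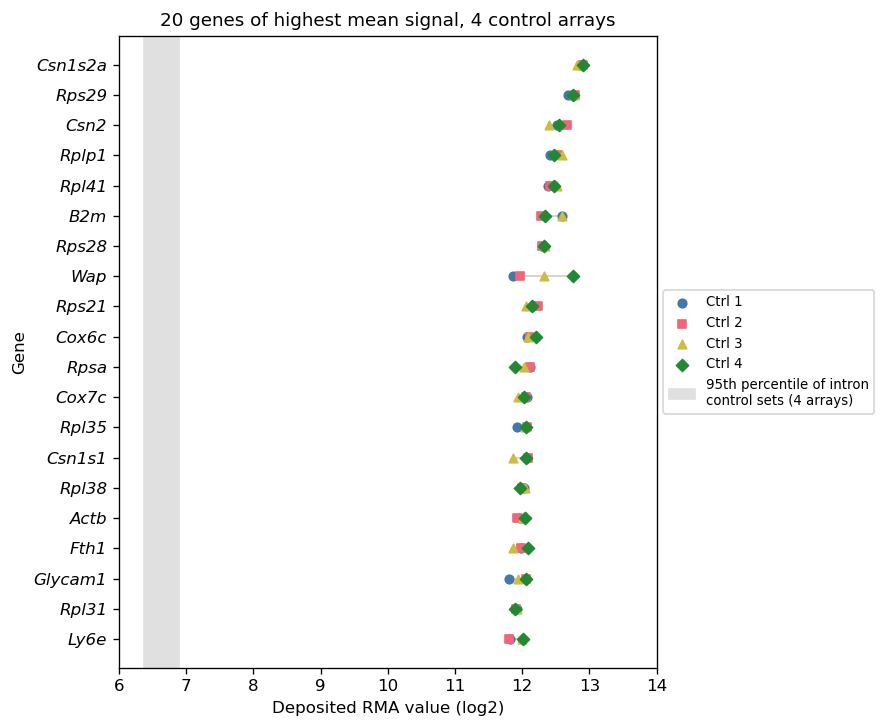
Log2 values of the 20 genes of highest mean on each of the 4 control arrays; markers are arrays, and the grey band spans the 4 background percentiles. Most genes have 4 values close together, while those of Wap run from 11.86 to 12.76.

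The milk protein list had 13 of 19 measured members above background on all 4 arrays and 4 above it on 0 arrays, against 9.33% of all genes on all 4. Its median level was 9.37, where the median over all genes was 4.13. Besides the caseins, Wfdc18 (11.58, 11.62, 11.41 and 11.58) and the iron carrier Trf (11.07, 11.14, 11.11 and 11.15) read high, and their 4 values did not differ much from each other. Lalba, the alpha-lactalbumin that makes the lactose synthase specific, read 9.26, 9.05, 9.75 and 10.05, and Ltf (lactoferrin) 6.67, 6.52, 8.08 and 7.19, above background on 2 arrays. Wap and Lalba thus had their higher values on Ctrl 3 and Ctrl 4, while Csn3 was lowest on Ctrl 3 (11.64, 11.75, 11.36 and 11.62). Csn1s2b, Wfdc2, Lpo and Pip were above background on 0 arrays, with Csn1s2b at 4.66, 5.27, 4.60 and 5.20. The casein genes lie in 1 stretch of chromosome 5 in RefSeq order, from Csn1s1, Csn2 and Csn1s2a over Csn1s2b, Prr27 and Odam to Csn3. BC037156, between Odam and Csn3, has no value here. The measured genes in between read low, with a mean of 4.93 for Csn1s2b, 3.35 for Prr27 and 4.34 for Odam. Outside the stretch, Sult1d1 had a mean of 2.48, so the high values were those of 4 casein genes and not of these measured neighbours.

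Stat5a, Elf5 and Nfib are factors known to act on milk genes, and the sequences upstream of the genes with the highest signal show where the Stat5-type motif TTCNNNGAA sits. The windows below hold the 200 bases before the RefSeq start of 5 milk genes (GRCm38.p6, 5' to 3' on the coding strand), with motif matches in capitals. They lie at chr5:87699426-87699625 (minus strand), chr5:87666008-87666207 (plus), chr15:103565082-103565281 (minus), chr5:87774250-87774449 (plus) and chr11:6638650-6638849 (minus), in the order shown. Csn2 has TTCTTGGAA 93 bases before its start, Csn1s1 has TTCTTAGAA at 100 and Glycam1 has TTCCCAGAA at 145. Csn1s2a and Wap, also among the 20 highest, have 0 matches in their windows.
Csn2: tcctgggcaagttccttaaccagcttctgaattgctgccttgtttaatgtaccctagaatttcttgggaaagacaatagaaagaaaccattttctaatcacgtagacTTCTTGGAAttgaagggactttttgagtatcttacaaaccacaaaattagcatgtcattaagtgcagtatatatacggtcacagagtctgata
Csn1s1: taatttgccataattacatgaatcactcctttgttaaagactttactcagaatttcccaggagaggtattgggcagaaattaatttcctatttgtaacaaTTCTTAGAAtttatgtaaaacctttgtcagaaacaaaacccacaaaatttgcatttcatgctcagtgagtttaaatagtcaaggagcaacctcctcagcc
Glycam1: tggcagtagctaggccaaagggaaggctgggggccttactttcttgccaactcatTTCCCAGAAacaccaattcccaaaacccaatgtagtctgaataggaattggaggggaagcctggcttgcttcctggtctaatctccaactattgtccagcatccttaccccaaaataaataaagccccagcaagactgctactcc
Csn1s2a: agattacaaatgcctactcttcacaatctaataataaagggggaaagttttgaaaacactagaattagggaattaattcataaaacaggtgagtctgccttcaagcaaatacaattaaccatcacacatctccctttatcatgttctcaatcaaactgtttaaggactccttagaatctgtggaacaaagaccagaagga
Wap: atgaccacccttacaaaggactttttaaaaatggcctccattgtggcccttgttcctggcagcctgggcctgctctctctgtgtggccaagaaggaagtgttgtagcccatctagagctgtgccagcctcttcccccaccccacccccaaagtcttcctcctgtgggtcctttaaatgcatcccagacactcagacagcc

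Over both strands of the 250 bases before the start, the motif occurred in 4 of 16 milk genes with a RefSeq promoter (Csn1s1, Csn2, Glycam1 and Pip), or 25.0%, and in 7.76% of all 15691 measured genes with one. Ribosomal protein genes had it in 3 of 38 (7.89%). Pip, which has the motif, lay above background on 0 arrays, while Csn1s2a and Wap, without it, were among the highest. A match is a stretch of letters only, and binding was not measured here. Of the pathway itself, Elf5 (9.54, 9.69, 9.62 and 9.32), Nfib (9.98, 9.89, 9.61 and 9.90) and Cish, a target and inhibitor of Stat5 signalling (7.91, 8.17, 8.10 and 7.40), lay above background on all 4 arrays. Stat5a, the factor named for this pathway, read 5.81, 6.45, 6.93 and 6.58 and was above background on Ctrl 3 and Ctrl 4 only. Of the 16 members of the alveolar and prolactin list, 4 were above background on all 4 arrays and 9 on 0 arrays. Id2, a repressor of other helix-loop-helix factors, read 8.68 and 8.55 on Ctrl 1 and 2, and 7.54 and 6.91 on Ctrl 3 and 4. The receptor gene Prlr is not analysed here.

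Genes for milk fat were also high. Of the milk fat globule list, 9 of 14 lay above background on all 4 arrays. Fabp3, a fatty acid carrier, read 12.02, 11.67, 11.75 and 11.92, and Plin2, which coats lipid droplets, 10.49, 10.18, 9.92 and 10.52. Of the fatty acid list, 14 of 22 were above background on all 4 arrays, led by Scd1, the desaturase of stearate (10.69, 10.45, 10.85 and 10.75), and Acly, which supplies cytosolic acetyl-CoA (9.88, 9.47, 9.65 and 9.66). Among its members with a mean above 6.61, the largest SDs were those of Slc25a1, the mitochondrial citrate carrier (6.46, 7.49, 9.14 and 7.47), and Elovl5, a fatty acid elongase (7.18, 7.01, 9.08 and 8.21). Ctrl 3 was highest in both. The cholesterol list had 2 of 16 members above background on all 4 arrays and 10 on 0 arrays, against 9.33 and 79.5% of all genes. Fdps, an enzyme of the mevalonate pathway, read 6.07, 7.90, 7.65 and 6.84 and passed background on 3 arrays. For lactose, 4 of 12 members were above background on all 4 arrays, among them Slc2a1, the glucose carrier of the plasma membrane (9.87, 10.42, 9.91 and 10.03), and B4galt1, the galactosyltransferase that pairs with Lalba (8.14, 8.38, 8.49 and 8.38). Of the transport list, 5 of 25 were above background on all 4 arrays, led by Slc7a5, a carrier of large amino acids (10.12, 9.60, 9.78 and 9.67).

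Genes of protein synthesis and export were mostly above background. All 47 cytosolic ribosome members and 29 of 36 members of the endoplasmic reticulum and secretion list were above background on all 4 arrays, with medians of 11.17 and 8.43. Hspa5, the BiP chaperone, read 10.24, 10.53, 9.65 and 10.20, and Kdelr2, which returns escaped chaperones to the endoplasmic reticulum, 10.32, 10.05, 10.45 and 10.70. Of the translation factors, 13 of 17 were above background on all 4 arrays, and of the oxidative phosphorylation genes 36 of 50. Glycolysis had 4 of 11.

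**Figure D2:**
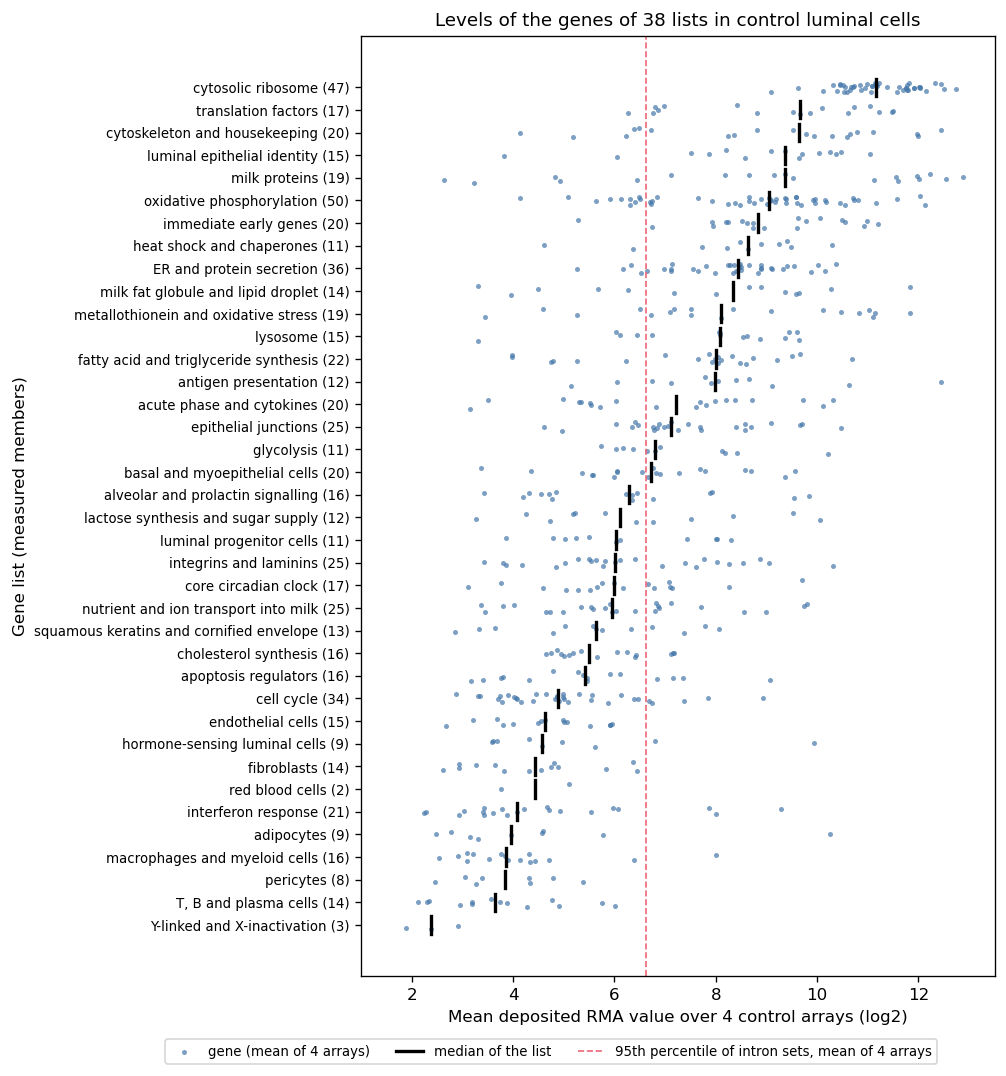
Mean log2 value over the 4 control arrays of each measured member of 38 gene lists, with the list median as a black bar and the mean of the 4 intron percentiles (6.61) as a dashed line. Ribosome, luminal identity, milk and secretion lists lie mostly to the right of the line, and stromal and immune lists mostly to the left.

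Luminal identity genes were high and steady. Of 15 measured members, 13 were above background on all 4 arrays, with a median level of 9.37 and a median SD of 0.19. Cldn4 read 10.63, 10.31, 10.53 and 10.43, and Cldn7, both tight junction claudins, 9.71, 9.71, 9.69 and 9.73. Epcam, an adhesion protein of epithelia, read 10.37, 10.18, 10.27 and 10.17. Of 9 hormone-sensing luminal genes, 1 was above background on all 4 arrays and 7 on 0 arrays, near the 9.33 and 79.5% of all genes. Esr1, the oestrogen receptor, read 3.94, 3.71, 3.67 and 3.01, and Pgr, the progesterone receptor, 4.15, 5.92, 5.37 and 4.42, all below background. Cited1, a transcription coregulator used as a marker of these cells, read 5.17, 5.74, 9.29 and 7.04. It was thus below background on Ctrl 1 and 2 and above it on Ctrl 3 and 4, while Esr1 and Pgr were below it on all 4. The progenitor list had 4 of 11 above background on all 4 arrays, among them Kit, a receptor kinase (8.56, 8.31, 7.81 and 7.42), and Sox10 (7.56, 7.58, 6.99 and 7.57).

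The integrins that bind laminin were unevenly measured in these control cells. Itga6 (8.83, 8.73, 9.14 and 8.80) and the shared beta chain Itgb1 (7.66, 8.01, 7.32 and 8.05) were above background on all 4 arrays. Itga3 read 6.72, 6.30, 5.37 and 7.27 and passed background on Ctrl 4 only. Itgb4, the partner of Itga6 in hemidesmosomes, read 5.69, 5.44, 3.26 and 5.67 and passed on 0 arrays, with Ctrl 3 lowest in both. The integrin and laminin list also holds Dag1 and the tetraspanin genes Cd9, Cd81, Cd82 and Cd151, each of these tetraspanins above background on all 4 arrays. Of its 25 measured genes, 9 were above background on all 4 arrays and 14 on 0 arrays, against 9.33 and 79.5% of all genes. The tetraspanin Cd81, which sits with integrins in the membrane, was the highest of the list (10.15, 10.12, 10.39 and 10.59).

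Genes that respond quickly to stress and to tissue handling were high. Of the immediate early genes, 18 of 20 lay above background on all 4 arrays, with a median of 8.84. Egr1 read 11.29, 11.19, 11.23 and 11.06, Zfp36, which destabilises mRNAs, 11.11, 11.05, 10.98 and 10.76, and Fos 9.28, 8.67, 8.76 and 8.19. All 3 were lowest on Ctrl 4, as were 11 of the 20 genes, where 24.8% of all genes had their lowest value on that array. Ctrl 1 held the highest value of 12 of the 20, against 25.9% of all genes. Whether these levels stem from digestion and sorting was not tested. Of the heat shock genes, 9 of 11 were above background on all 4 arrays, and of the metallothionein and oxidative stress genes 12 of 19, led by Mt2 (11.71, 11.70, 11.80 and 12.14). The acute phase list had 9 of 20 above background on all 4 arrays, with Lif, a cytokine gene (10.27, 10.57, 10.14 and 10.31), and Lcn2, which binds bacterial siderophores (10.40, 10.03, 9.81 and 10.23), highest. Among its members with a mean above 6.61, the largest SDs were those of Ccl2 (7.09, 7.36, 7.56 and 9.24), a monocyte attractant highest on Ctrl 4, and Tnf (8.38, 8.02, 7.54 and 6.48), lowest there. Il6, a cytokine gene of lower mean, had the largest SD of the whole list (2.52) and read 5.39, 3.35, 4.22 and 9.08, above background on Ctrl 4 only. Of 21 interferon genes, 3 were above background on all 4 arrays and 17 on 0 arrays, near the 9.33 and 79.5% of all genes. Of antigen presentation genes 8 of 12 were above it on all 4 arrays. Psmb8, an immunoproteasome subunit, read 8.61, 6.89, 6.74 and 6.19 and Psmb9 9.70, 8.80, 8.30 and 7.86, both highest on Ctrl 1. Of 34 cell cycle genes, 3 were above background on all 4 arrays and 27 on 0 arrays, again near the shares of all genes, and Mki67 read 6.87, 6.41, 5.97 and 6.30, below background on each array. Of the 3 measured Y-linked genes, 0 were above background on any array.

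Of the genes of other cell types, 8 of 15 endothelial, 12 of 14 fibroblast, 8 of 8 pericyte and 13 of 14 lymphocyte genes were above background on 0 arrays, as were 79.5% of all genes. On all 4 arrays, 0 of 15 endothelial, 0 of 14 fibroblast, 0 of 8 pericyte and 0 of 14 lymphocyte genes were above background. Ptprc, the pan-leukocyte antigen CD45, read 4.84, 3.44, 7.07 and 3.70 and was above background on Ctrl 3 only. Col1a1, the collagen of fibroblasts, read 6.04, 5.63, 5.65 and 6.0, and Adipoq, the adipocyte hormone adiponectin, 2.64, 2.29, 2.20 and 2.80, below background on each array. An exception on all 4 arrays was Fabp4, a fatty acid carrier of adipocytes and capillaries (10.14, 9.27, 10.16 and 11.42), though 8 of 9 adipocyte genes were above background on 0 arrays. Cd14, of monocytes and luminal progenitors, was the myeloid gene above background on all 4 arrays (7.92, 7.37, 8.31 and 8.44), and 14 of 16 myeloid genes were above it on 0 arrays. Of the 20 basal and myoepithelial genes, 5 were above background on all 4 arrays and 5 on 0 arrays.

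Of the 38 lists, the squamous, endothelial and basal lists had the widest ranges of their score over the 4 arrays (3.22, 1.87 and 1.25). Most of the single genes that varied were in no list, as were most of all genes. Over genes with a mean above 6.61, 2651 in number, the median SD was 0.33, and 87 genes (3.28%) had an SD of at least 1. Over all genes, dim ones included, 719 did (3.69%). The count of 87 depended on the arrays, with 151 such genes without Ctrl 1. Of the 87, 14 were in a list, as were 669 of all 19505 genes. The 87 had passed the filter on the mean and most of all genes had not, so these shares rest on unlike bases. Above background on all 4 arrays were 9 of the 87, and on 1 to 3 arrays 78. No gene with a mean of 10 or more (0 of 183) had an SD of at least 1, against 5.96% of genes with means of 6 to 8. Just below the limit lay Hint3 and Ccnl2, with SDs of 0.995 each, and just above it Mrpl45 and Gm8439 with 1.01. The steadiest genes above background were Rpl31-ps12, Rpl31, Rpl37, Lrrc47 and Cldn7, with SDs of 0.006, 0.010, 0.013, 0.014 and 0.016. Rpl31-ps12 is a pseudogene named for Rpl31, and signals of such near-identical copies cannot be told apart here.

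**Figure D3:**
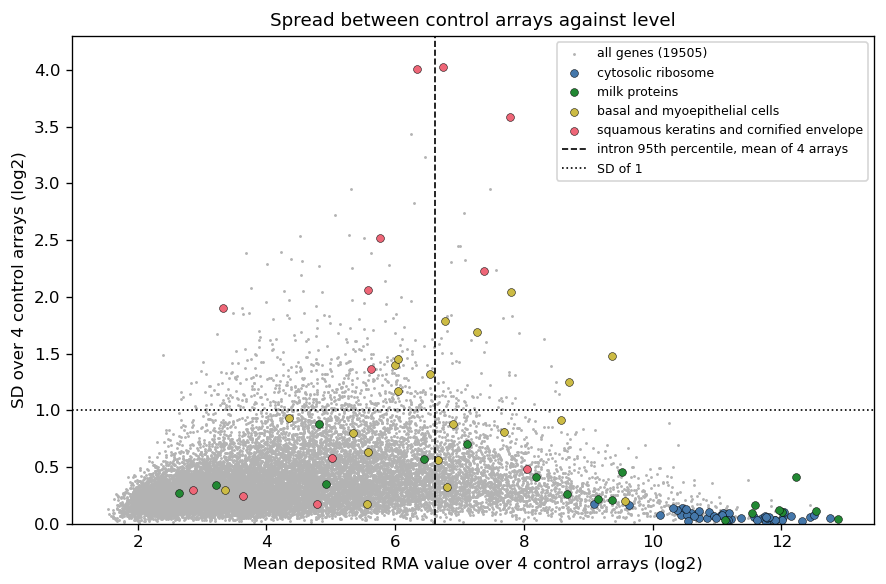
SD over the 4 control arrays against the mean log2 value for each gene. Coloured points are members of 4 lists, the dashed line is the mean background percentile and the dotted line an SD of 1. Ribosome and milk genes with high means have low SDs, and several squamous and basal genes lie above the dotted line.

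Several squamous keratin genes and some desmosome genes separated Ctrl 2 and Ctrl 3 from Ctrl 1 and Ctrl 4. Among desmosomal cadherin genes, Dsc2 did (5.14, 9.77, 8.28 and 4.73), while Dsg2 did not (7.90, 7.54, 7.68 and 7.66). Krt13, a keratin of stratified mucosa, had the largest SD of all genes with a mean above 6.61 (4.03) and read 3.35, 10.62, 9.83 and 3.19. Krt10, of differentiating epidermis, read 4.59, 11.08, 10.70 and 4.79. The values of Krt13 and Krt10 on Ctrl 2 and 3 lay above background by far, and those on Ctrl 1 and 4 below it, so the arrays formed separate pairs. Dsp, a desmosome plaque protein, read 4.49, 9.02, 8.66 and 5.31, Krt5, of basal cells, 5.38, 9.44, 9.54 and 6.81, and Krt14, its partner, 7.62, 10.91, 10.20 and 8.72. All 3 had their highest values on these arrays. Of the 87 varying genes, 18 (20.7%) had their largest gap between Ctrl 2 and 3 on one side and Ctrl 1 and 4 on the other. Among all genes with a mean above 6.61, 5.36% had it there. Of these 18, 12 were above background on Ctrl 2 and 3 only and so passed the filter on the mean through the arrays where they were high, and their number is a description only. Of 13 squamous genes measured, 6 were above background on Ctrl 2 and 3 only, where 144 of all 19505 genes (0.738%) were. Counted by array, 1, 8, 7 and 1 of the 13 were above background on Ctrl 1 to 4, and 9 were highest on Ctrl 2, where 23.2% of all genes were. The list was chosen with earlier results of these data known, so these counts and shares are a description only. The list score, the mean over members of the value minus the mean of the gene over the 4 arrays, was -1.45, 1.77, 1.01 and -1.32 on Ctrl 1 to 4. Over the same arrays the squamous score spread over 3.22, and the milk and luminal scores over 0.21 and 0.19. Without Ctrl 2 and 3, a setting chosen after seeing the data, the squamous spread was 0.13. Krt4, of stratified mucosa, had nearly as large an SD as Krt13 and read 2.43, 10.32, 9.22 and 3.36, but its mean lay below 6.61. The members above background on 0 arrays were 5, Ivl (involucrin), Lor (loricrin), Lce3b, Sprr2h and Krt23. All but Krt23, a keratin, are genes of the cornified envelope. The cells these transcripts came from were not identified here.

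Krt13 and Sprr2f are shown because they varied together between the arrays and both hold the letters TGANTCA, bound in general by AP-1, the dimers of Fos and Jun. Krt13 has TGACTCA 183 and 34 bases before 1 of its 2 RefSeq starts, and that start was picked by its number of matches. Sprr2f has TGAGTCA 197 bases before its start. The windows hold the 200 bases before these starts (GRCm38.p6, chr11:100120578-100120777 on the minus strand and chr3:92364987-92365186 on the plus strand). Motif letters are in capitals.
Krt13: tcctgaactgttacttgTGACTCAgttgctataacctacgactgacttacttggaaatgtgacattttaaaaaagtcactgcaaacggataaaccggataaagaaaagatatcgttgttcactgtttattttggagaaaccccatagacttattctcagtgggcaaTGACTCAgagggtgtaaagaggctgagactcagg
Sprr2f: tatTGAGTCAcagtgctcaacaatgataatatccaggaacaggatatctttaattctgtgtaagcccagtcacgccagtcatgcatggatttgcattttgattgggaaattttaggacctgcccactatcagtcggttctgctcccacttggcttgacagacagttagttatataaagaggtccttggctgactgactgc
Over both strands of the 250 bases before the start, 7.37% of all measured genes with a RefSeq promoter had the motif. Both genes are shown because they hold it, so their matches support nothing further. Sprr2f, a small proline-rich envelope protein, read 5.15, 10.41, 9.61 and 4.74. Immediate early genes, Fos and Jun among them, had scores of 0.21, 0.06, -0.04 and -0.23 on Ctrl 1 to 4.

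**Figure D4:**
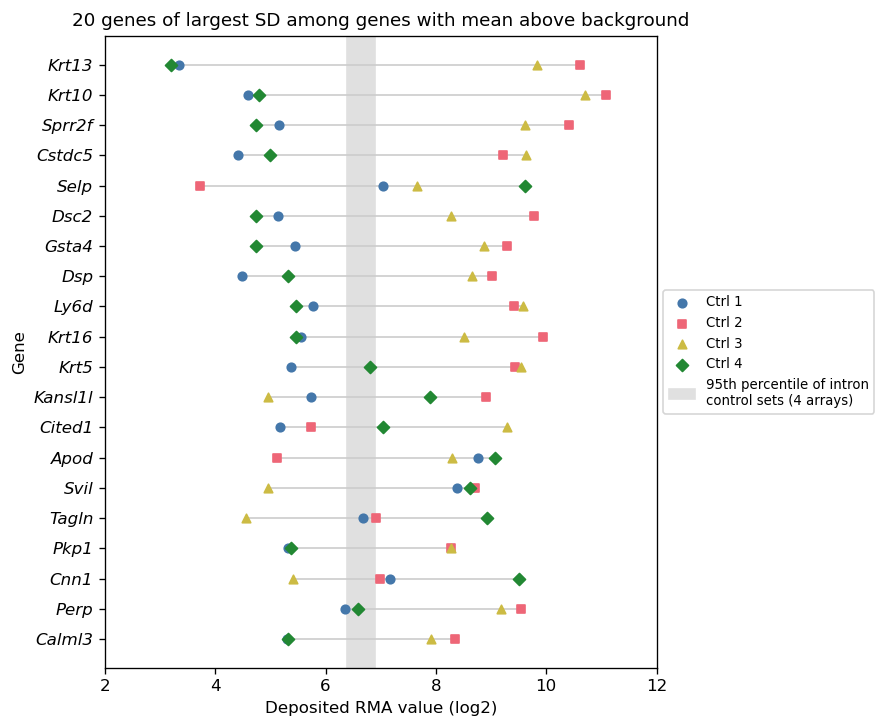
Log2 values of the 20 genes of largest SD on the 4 control arrays, with markers for arrays and a grey band over the 4 background percentiles. Of the 20, 13 lie high on Ctrl 2 and Ctrl 3 and low on Ctrl 1 and Ctrl 4.

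Endothelial and contractile genes were highest on Ctrl 4. Of 15 endothelial genes, 14 were highest on Ctrl 4, where 24.3% of all genes were, and 6 were above background on that array alone, against 1.71% of all genes. This list too was chosen with earlier results of these data known, so its counts are a description only. Pecam1, an adhesion molecule of endothelium, read 4.81, 5.36, 4.76 and 7.14, and the score of the list was -0.47, -0.52, -0.36 and 1.35. The score spread over 1.87 with the 4 arrays and over 0.16 without Ctrl 4. Ctrl 1 to 3 thus lay below background for Pecam1 and Ctrl 4 above it. Cdh5, the cadherin of endothelium, read 4.36, 4.73, 6.44 and 8.31 and was above background on Ctrl 3 and 4. Among myoepithelial genes, Acta2, the smooth muscle actin, read 8.17, 8.82, 7.44 and 10.37 and Cnn1, a calponin, 7.17, 6.99, 5.40 and 9.50. Both were highest on Ctrl 4 and lowest on Ctrl 3. The same held for the 6 contractile genes of the basal list, a subset picked after their values were seen (score -0.27, -0.04, -1.50 and 1.80, with 25.4% of all genes lowest on Ctrl 3). The score of the 4 basal keratins of the list, a subset picked in the same way, was -1.43, 1.14, 0.51 and -0.23. Its members differed, since Krt17 (5.16, 5.95, 4.92 and 6.26, below background on each array) was highest on Ctrl 4 and lowest on Ctrl 3, like the contractile genes, while Krt14 was highest on Ctrl 2. Trp63, a transcription factor of basal cells, read 5.24, 8.37, 6.12 and 6.45 and was above background on Ctrl 2 only. The fibroblast score was also highest on Ctrl 4 (0.59), as were 9 of 14 fibroblast genes, though 12 of the 14 were above background on 0 arrays. The other 2, Postn (6.14, 6.14, 4.87 and 8.62) and Dcn (5.93, 6.44, 6.02 and 7.11), matrix genes of fibroblasts, were above background on Ctrl 4 only.

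Other varying genes followed other orders of the arrays. In 18 of the 87 (20.7%), the largest gap lay between Ctrl 3 and the higher values of the other 3 arrays, against 12.1% of all genes with a mean above 6.61. Among these 18 were Svil, an actin-binding protein (8.39, 8.70, 4.96 and 8.62), and Tagln, a smooth muscle gene (6.68, 6.92, 4.55 and 8.93). Tagln is also 1 of the 6 contractile genes above and shares their order, highest on Ctrl 4 and lowest on Ctrl 3. In a further 16 (18.4%), the largest gap lay between Ctrl 3 and the lower values of the others, as in Cited1. Of all genes with a mean above 6.61, 10% had that pattern. Without Ctrl 3, Cited1 did not pass the filter on the mean. Genes high on 1 array can pass that filter through it, so this number too is a description only. Selp, an adhesion receptor of platelets and endothelium, read 7.04, 3.73, 7.66 and 9.61, low on Ctrl 2 only, and Apod, a lipocalin, read 8.76, 5.11, 8.29 and 9.07 in the same manner. Kansl1l (5.74, 8.91, 4.95 and 7.89) was high on Ctrl 2 and 4. Of the milk genes, 0 of the 14 with a mean above 6.61 had an SD of at least 1, near the 3.28% of all genes with such a mean.

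**Figure D5:**
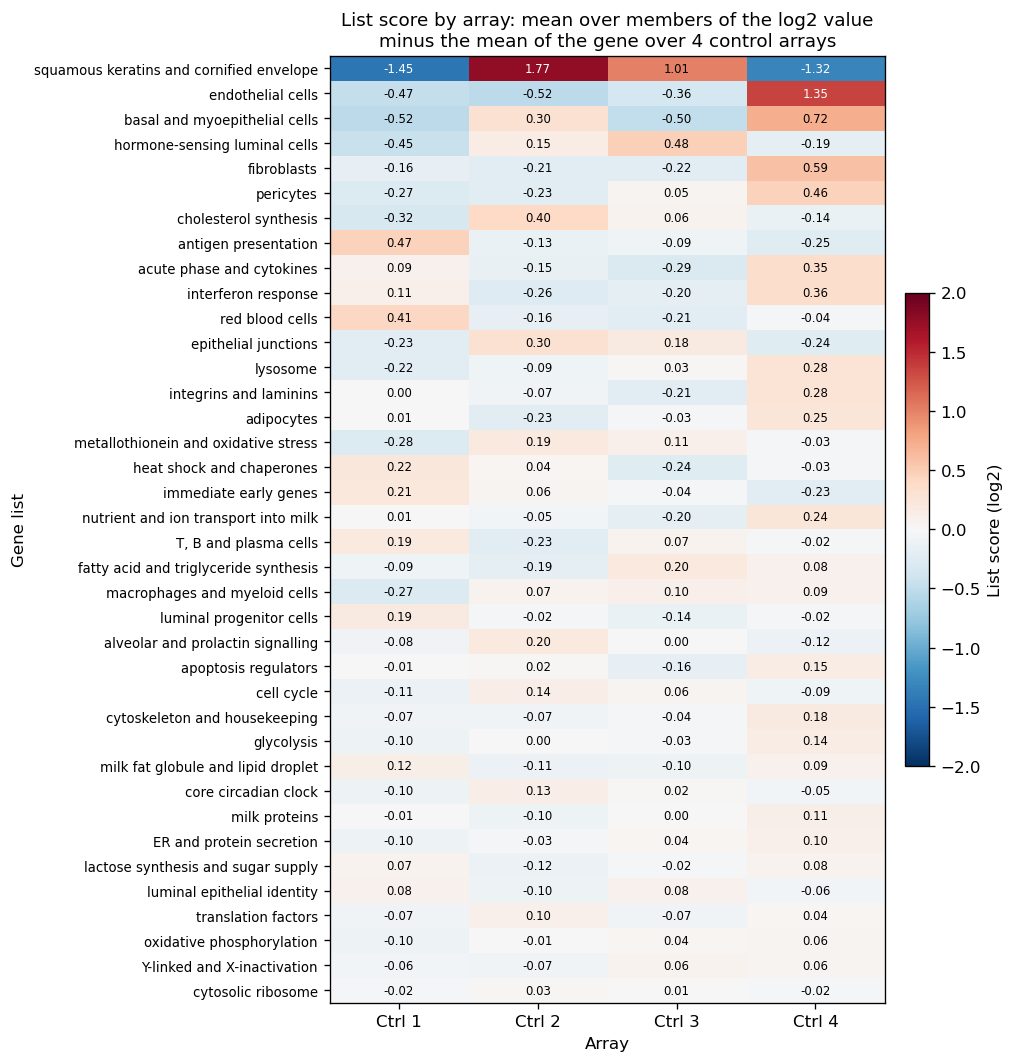
List score on each control array for 38 gene lists, from low (blue) to high (red), with the lists ordered by their range. The squamous list is high on Ctrl 2 and 3 and the endothelial list on Ctrl 4, while ribosome, luminal identity and milk lists stay near 0.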

How the data were processed

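The 4 control samples of sorted luminal cells were measured on Affymetrix arrays. The deposited log2 values were made by the authors with Affymetrix Expression Console and RMA, per the submitters' processing notes, with no versions stated, and were used as deposited. RMA makes the arrays share a distribution, which would hide a shift common to most genes. Of 28846 probe sets, 19572 had 1 gene symbol in the platform annotation, and where 55 genes had several sets, the set of highest mean was kept. The genome build of the probe sets is not given in the sources used here. Promoters are from RefSeq (GRCm38.p6).

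There was 1 group and no contrast, so no test between groups was made. Dixon's limit was used only to flag arrays that stood apart from the other 3. Background was the 95th percentile of 5222 intron control sets per array. A list score was the mean over members of the log2 value minus the mean of the gene over the 4 arrays. Of 754 genes in 38 lists, 669 were measured, 4 through an updated symbol. Members and lists were chosen with earlier results of these data known. Named genes were the 20 of highest mean, the 20 of largest and 5 of smallest SD among genes with a mean above background, up to 4 list members of highest mean and 2 of largest SD per list, and a list of markers. Trf, Wfdc18, Il6, Krt4, Krt17, Dsg2, the dim members of the milk and squamous lists, the casein neighbours and the genes at the SD limit were named after their values were seen. Arrays have no read depth, and with 4 of them the SDs are imprecise. The script that computes SDs and array patterns was tested on simulated data with planted patterns, which is a check of the code and not of the patterns reported. Alternatives were other percentiles, a median shift, probe set means, other filters and leaving out arrays. Python 3.11.15, pandas 2.3.3, NumPy 2.4.6 and matplotlib 3.10.9 were used.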

Additional observations from a re-analysis of the deposited data

Results flagged for a closer look

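In 4 of 38 list scores and 3 of 65 named genes, 1 of the 4 control arrays stood apart from the other 3, with a gap to the nearest array that exceeded Dixon's 95% limit as a share of the range. Chance flags about 1 in 20 groups picked without regard to their values. That rate does not hold here, since the lists were chosen with earlier results of these data known. Of the genes, 20 were named for their large SD, Svil among them, so the flags are a description only. Ctrl 4 stood high in the scores of endothelial cells (1.35), fibroblasts (0.585) and cytoskeleton and housekeeping genes (0.18), and Ctrl 1 stood low in that of macrophages and myeloid cells (-0.271). Ctrl 3 stood low in Csn1s1 (11.86), Svil (4.96) and Itgb4 (3.26), and Itgb4 lay below background on all 4 arrays.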

How the results depend on the processing

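No paired analysis was possible because the results come from 1 group with no contrast. The count of genes above background on all 4 arrays was 1820, 3466 with the 90th and 356 with the 99th percentile of the intron sets, and 1870 to 2133 without 1 replicate. Taking the highest antigenomic set as background, an alternative chosen after seeing the data, gave 2284. The luminal list had 8 members above background with the 99th percentile, the squamous list 0 and the basal list 1, and the basal list 8 with the 90th. Varying genes were 87, 719 with no filter on dim genes, 1 (Krt14) with a mean above the 99th percentile, 74 to 151 without 1 replicate (151 without Ctrl 1), and 96 without Ctrl 2 and Ctrl 3, a setting chosen after seeing the data. The spread of the milk score, 0.21, was 0.0958 to 0.21 without 1 replicate and 0.1158 without Ctrl 2 and Ctrl 3. The endothelial spread, 1.87, was 0.1647 without Ctrl 4 and at most 1.87 without another. The squamous spread, 3.22, was 2.46 to 3.22 without 1 replicate and 0.1338 without Ctrl 2 and Ctrl 3. The cause of these shifts was not tested, except that leaving out the arrays named removes the values that set those spreads. Over the other results and these alternatives, the mean levels of named genes moved by less than their spread between arrays in 390 comparisons and by more in 0, and their SDs in 389 and 1. Leaving out 1 of 4 arrays cannot move a mean by as much as its SD, and it can hardly move an SD by that much. These counts for named genes were thus nearly fixed in advance and say little about stability. Counts of list members above background stayed within the 1.5-fold limit in 265 comparisons and not in 32, and list score spreads moved by less than the SD of the 4 scores in 203 and by more in 46. Of the 20 genes of largest SD, 15, 8, 9 and 14 were shared without Ctrl 1, 2, 3 and 4 in turn. Signal over background limits genes near the intron percentiles.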

Other observations

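Further lists described the everyday state of the control cells. Of 15 lysosome genes, 10 were above background on all 4 arrays, led by Ctsl, a cathepsin protease (9.92, 9.15, 9.60 and 9.87 on Ctrl 1 to 4), and Grn, the progranulin gene (9.39, 9.63, 9.38 and 10.04). The score of the list was -0.22, -0.09, 0.03 and 0.28 on Ctrl 1 to 4, lowest on Ctrl 1 and highest on Ctrl 4. Of 20 cytoskeleton and housekeeping genes, 14 were above background on all 4 arrays, and of 25 epithelial junction genes 13. In the junction list, Jup, which encodes plakoglobin, was above background throughout (9.30, 9.81, 9.97 and 9.55), whereas the desmosomal cadherin gene Dsc2 was above it on Ctrl 2 and 3 only (5.14, 9.77, 8.28 and 4.73). Junction genes above background on Ctrl 2 and 3 only numbered 5 of 25, against 0.738% of all genes. This list too was chosen with earlier results of these data known, so the count is a description only.

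Of 17 clock genes, 4 were above background on all 4 arrays and 10 on 0 arrays, against 9.33 and 79.5% of all genes. Bhlhe40, a repressor in the clock loop, read 9.69, 9.53, 9.72 and 9.89, and Per1 read 7.77, 6.69, 7.01 and 7.09, highest on Ctrl 1. Of 16 apoptosis regulators, 3 were above background on all 4 arrays, with Mcl1, which opposes cell death, at 8.94, 8.96, 9.17 and 9.19. Casp8, an initiator caspase, passed background on Ctrl 4 only (6.78, 6.55, 6.36 and 7.67). Both red blood cell genes measured, Alas2 and Slc4a1, were below background on each array.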
